A study of Mus musculus with 27 samples.

Results

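The comparison is that of the region around the portal vein, zone 1 (PV), with the region around the central vein, zone 3 (CV), of the liver of mice that were not pregnant (NP). It rests on 6 of the 27 libraries of the series, 3 of zone 1 and 3 of zone 3, and on the 11386 of 21823 genes that reached 1 FPKM in 3 or more of these libraries. All mice of the series were wild-type (WT) females, labelled C57BL/6 and named C57BL/6N in the study's methods, and the NP mice were virgin animals. Their age is 8 to 14 weeks in the study's methods, while its reporting form gives a wider range for wild-type mice. The other libraries are 3 of the middle zone 2 of NP liver and 3 of each zone from mice at 8 or 16 days post coitum (dpc8 and dpc16). Each library was made from 2 mm2 of tissue cut by laser from frozen sections 5 µm thick, so it holds every cell type of the cut area and is not a preparation of hepatocytes. In such a sample, fewer cells of a type cannot be told apart from less RNA per cell. The study calls the 3 libraries of a zone independent experiments and says in general that different mice were used. The labels do not tie a library to a mouse, and whether mice were pooled for a library is not given in the sources used here. The p-values therefore measure the spread between libraries, and that spread was estimated in 1 fit from all 27 libraries.

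Blood reaches the liver lobule at its portal tracts, flows past plates of hepatocytes and leaves through the central vein. Oxygen, hormones and nutrients fall along this path, while Wnt proteins and R-spondin 3 from the central vein endothelium keep β-catenin active in the neighbouring hepatocytes. Periportal hepatocytes are known for urea synthesis from ammonia, gluconeogenesis and the breakdown of several amino acids. Pericentral hepatocytes are known for glutamine synthesis, which takes up the ammonia that escapes the urea cycle, and for cytochrome P450 enzymes and bile acid synthesis.

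Levels are given as FPKM, fragments per kilobase of transcript scaled to the mapped fragments of the library, in the order of replicates 1, 2 and 3 of a zone. Differences are zone 1 minus zone 3 on the scale of log2(FPKM + 1), with the standard error (SE) of the limma fit and the p-value adjusted by the Benjamini-Hochberg method over all 11386 genes. A positive difference is a higher level in zone 1, and the added 1 shrinks the difference of weakly expressed genes. A gene is called higher in a zone where its adjusted p is under 0.05. Each call was also tested in 6 fits that left out 1 of the 6 libraries each. A call is said to hold where all 6 fits made it, and otherwise the highest adjusted p of these fits is given with the library that was left out.

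The 4 marker genes followed the zone labels in every library. Cyp2f2, a periportal cytochrome P450 (chromosome 7, 27119909 to 27133660, GRCm38), had 523, 1165 and 1455 FPKM in zone 1 and 2.61, 6.60 and 0.716 in zone 3. Sds, serine dehydratase (chromosome 5, 120476526 to 120483932), had 375, 349 and 491 FPKM in zone 1 and 2.97, 4.26 and 0.197 in zone 3. Glul, glutamine synthetase (chromosome 1, 153899944 to 153909723), stood at 58.1, 23.6 and 69.0 FPKM in zone 1 and at 3264, 2890 and 3092 in zone 3. Slc1a2, a glutamate transporter (chromosome 2, 102658659 to 102790784), stood at 1.18, 2.43 and 3.31 FPKM in zone 1 and at 427, 280 and 349 in zone 3. All 4 calls held, with differences of 8.06, 7.10, -6.04 and -6.77. Of 13 usual periportal markers 12 were higher in zone 1. The exception was Pck1, the rate-limiting enzyme of gluconeogenesis, at 1746, 1184 and 1282 FPKM against 1588, 106 and 235 (adjusted p = 0.53, limma). Of 13 usual pericentral markers 11 were higher in zone 3. Lgr5 did not pass (adjusted p = 0.13, limma), and Sult5a1, listed among them, was higher in zone 1.

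The depth estimated from the steps between low FPKM values was 11.5 to 21.2 M mapped reads for the 6 libraries (M for the prefix mega), and 10675 to 11997 genes per library reached 1 FPKM. Zone 1 replicate 1 and zone 3 replicate 2 stood apart. Their 4 Y-linked genes summed to 15.4 and 7.92 FPKM although all mice are labelled female, and the sum was at most 0.973 in the 4 other libraries. The 18 genes of connective tissue and smooth muscle summed to 4281 and 1576 FPKM in these 2 libraries and to 433 to 947 in the others. A fit with the level of the connective tissue genes as a covariate kept all 67 and all 104 of the calls made for zones 1 and 3, and the part of the Y-linked transcripts in the results was not tested. A fit without all libraries that had over 5 FPKM of Y-linked transcripts (6 of the 27) left 2 libraries per zone in NP liver and is named here the fit without the Y-linked libraries. It made 109 calls higher in zone 1 and 117 higher in zone 3.

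In the comparison with all libraries, 67 genes (0.588% of those tested) were higher in zone 1 and 104 genes (0.913%) were higher in zone 3. A list below that holds no call is near these shares, since the lists are short. With only the 6 libraries fitted, 29 genes were called in zone 1 and 49 in zone 3. The median difference over all genes was 0.01. Calls held for 38 of the 67 genes and 52 of the 104. Without the Y-linked libraries 52 and 85 of them were called. The absolute difference of the called genes was 0.89 to 8.06 in zone 1, with a median of 2.30, and 0.80 to 6.77 in zone 3, with a median of 2.21. All 3 values of zone 1 lay above all 3 of zone 3 in each of the 67 genes, where 6.06% of all genes tested did so. All 3 values of zone 3 lay above in 103 of the 104, where 6.62% of all genes did so, and the exception was Cdh13. These counts describe the called genes and are no separate evidence, since the calls were made on the same values. The expression filter admitted 98 genes through their 3 values in 1 zone only, and 37 of the called genes (21 in zone 1 and 16 in zone 3) are among these. Of the genes named below, Aldh1b1, Sdsl, Eci3, Slc16a6, Slc51b, Muc1 and Lamc3 are among the 21. Rhbg, Slc13a3, Slc22a3, Sult3a2, Cyp3a41b, Serpina7, Sp5, Fitm1 and Ihh are among the 16. The filter itself required a high level in that zone, so their calls are no separate support. The usual marker lists hold 13 of the genes higher in zone 1 and 11 of those higher in zone 3, so most called genes lie outside them.

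**Figure D1:**
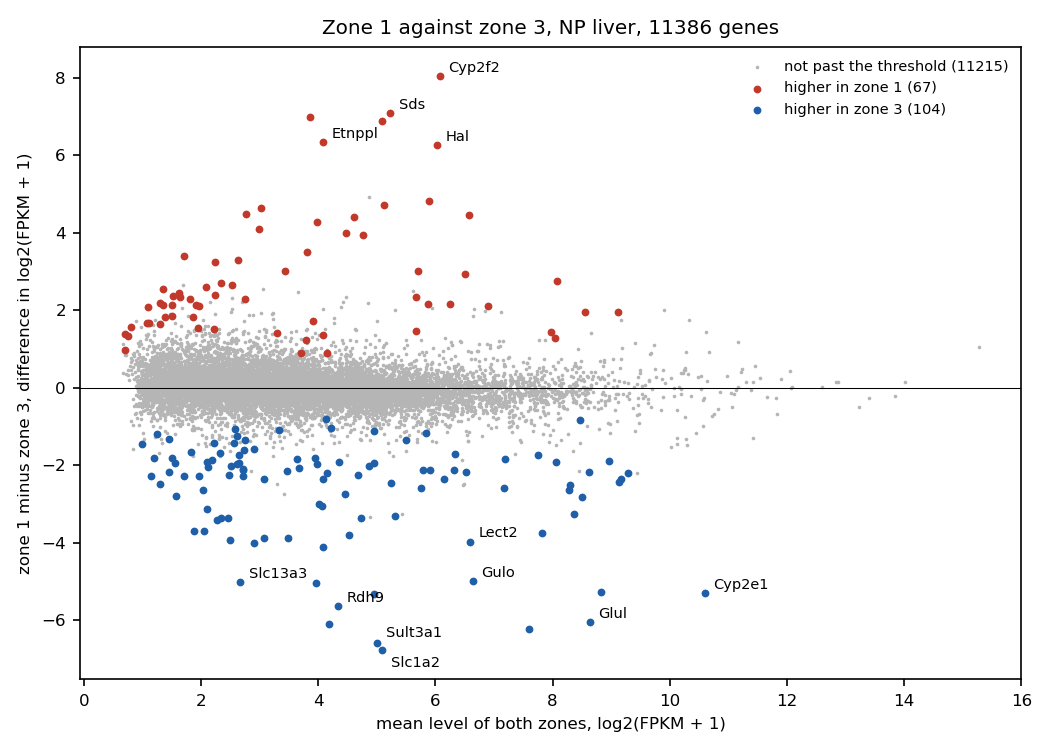
Difference between zone 1 and zone 3 (zone 1 minus zone 3, in log2(FPKM + 1)) against the mean level of both zones, in log2(FPKM + 1), for 11386 genes of NP liver; red points are the 67 genes higher in zone 1, blue points the 104 higher in zone 3 and grey points the rest. The called genes span weak and strong expression, with Cyp2f2 at 8.06 and Slc1a2 at -6.77 as the ends of the scale.

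Enzymes that break down amino acids were among the genes higher in zone 1. The pathway that converts histidine to glutamate was higher there: all 4 of its genes were called, and the median difference of the list was 2.26. Hal, histidine ammonia-lyase, which takes the first step (chromosome 10, 93488768 to 93519304), had 304, 662 and 569 FPKM in zone 1 and 3.14, 16.5 and 2.49 in zone 3, a difference of 6.27 ± 0.58 (SE, adjusted p = 2.7e-07, limma). Its call held. Uroc1, urocanase, the second enzyme (chromosome 6, 90333284 to 90364551), had 183, 262 and 296 FPKM against 77.7, 44.1 and 48.3, a difference of 2.12 that held. Amdhd1, the third enzyme, lies next to Hal on chromosome 10 (93523338 to 93540033) and had 68.3, 151 and 119 FPKM against 23.3, 32.0 and 10.9. Ftcd, which passes the formimino group to tetrahydrofolate in the last step (chromosome 10, 76575648 to 76590338), had 108, 185 and 194 FPKM against 37.4, 31.2 and 33.9, a difference of 2.17 that held. The 4 steps were unequal in size, with a difference of 6.27 for Hal and of 2.12 to 2.35 for the 3 later enzymes. The call of Amdhd1 (2.35 ± 0.54, SE) was lost in 4 of the 6 fits, with an adjusted p up to 0.19 without zone 3 replicate 3.

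Of 16 genes of serine, glycine and threonine metabolism 3 were higher in zone 1 and none in zone 3, with a median difference of 0.15. Sdsl, a relative of serine dehydratase, had 7.03, 11.1 and 11.2 FPKM in zone 1 and was listed at 0 in the zone 3 libraries. Its call held (adjusted p = 1.0e-05, limma), but it passed the expression filter through zone 1 only. Gldc, the decarboxylase of the glycine cleavage system, had 51.4, 144 and 68.6 FPKM against 1.80, 18.4 and 1.6, a difference of 3.96 ± 0.85 (SE). The Gldc call was lost in 3 fits, with an adjusted p up to 0.11 without zone 3 replicate 3, and the value of 18.4 belongs to zone 3 replicate 2. Sfxn1, which carries serine into mitochondria, belongs to no list and had 70.8, 90.7 and 95.7 FPKM against 3.16, 7.15 and 3.71, a difference of 3.99 ± 0.42 (SE) that held.

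Etnppl, Aspg and Rida, enzymes of nitrogen compounds outside the lists, were also higher in zone 1. Etnppl, which degrades phosphoethanolamine (chromosome 3, 130617448 to 130637521), had 85.7, 273 and 108 FPKM against 0.339, 1.97 and 0.194. Its difference of 6.35 ± 0.53 (SE, adjusted p = 6.1e-08, limma) was the largest in zone 1 outside the usual markers. Aspg, an asparaginase (chromosome 12, 112106679 to 112127559), was at 104, 114 and 107 FPKM against 6.71, 4.16 and 2.36, with little spread between the zone 1 libraries. Rida, which clears reactive imines that arise from amino acid breakdown, was at 662, 1206 and 1492 FPKM against 213, 292 and 316. Etnppl and Aspg held, while Rida (difference 1.97) reached an adjusted p of 0.061 without zone 3 replicate 1 and was also lost without zone 1 replicate 3.

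Further amino acid lists held no call in either direction. In lists this short that is near the share over all genes, 0.588% called in zone 1 and 0.913% in zone 3. None of 8 genes for tyrosine and phenylalanine (median -0.33), 10 for tryptophan (median 0.14), 18 for branched-chain amino acids and lysine (median -0.23) or 17 for methionine and one-carbon metabolism (median 0.02) passed the test. Tat, tyrosine aminotransferase, for example, had 909, 959 and 1139 FPKM against 1220, 286 and 460, and Tdo2, which opens the tryptophan ring, had 331, 571 and 641 against 495, 289 and 640. Values of both genes overlapped between the zones.

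Ammonia handling was split between the zones at its ends. Of 13 genes of the urea cycle and its supply 2 were higher in zone 1 and 2 in zone 3, with a median of 0.23. Gls2, the glutaminase that frees ammonia from glutamine, had 270, 499 and 441 FPKM against 30.8, 29.1 and 4.94, a difference of 4.45 ± 0.55 (SE) that held. The cycle itself was less steep. Asl, argininosuccinate lyase, had 596, 747 and 900 FPKM against 190, 170 and 207 (difference 1.96), and its call was lost in each of the 6 fits, with an adjusted p up to 0.13 without zone 1 replicate 3. Cps1, which fixes ammonia, had 778, 1341 and 1698 FPKM against 553, 548 and 597 and did not pass (difference 1.10 ± 0.50, SE, adjusted p = 0.56, limma). Ass1, argininosuccinate synthase, likewise did not pass in limma (1.75, adjusted p = 0.054), and it is named here after its values were seen. All 3 zone 1 values of Cps1 and of Ass1 lay above those of zone 3. Without the Y-linked libraries, both passed (adjusted p = 0.0084 and 0.00038, limma) and the list had 5 genes higher in zone 1.

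Genes for making glutamine and glutamate were called in zone 3. Of 15 genes of glutamine and proline handling 4 were higher in zone 3 and 1, Gls2, in zone 1. Oat, ornithine aminotransferase, which makes glutamate from ornithine, had 37.6, 18.8 and 11.5 FPKM in zone 1 and 1736, 1559 and 1498 in zone 3, a difference of -6.23 ± 0.62 (SE). Rhbg, an ammonium transporter (chromosome 3, 88242874 to 88254709), had 0, 0.243 and 0.897 FPKM against 26.8, 8.04 and 31.6, a difference of -3.92 ± 0.38 (SE). Glul and Slc1a2 complete the set, and all 4 calls held. The zone 3 values of Rhbg spread more widely than those of Glul and Oat. Csad, which makes the taurine precursor hypotaurine, was the 1 gene of 10 called in cysteine, taurine and glutathione synthesis, at 25.6, 20.0 and 15.4 FPKM against 222, 106 and 80.9. Its call (-2.58) was lost in each of the 6 fits, with an adjusted p up to 0.26 without zone 3 replicate 1.

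**Figure D2:**
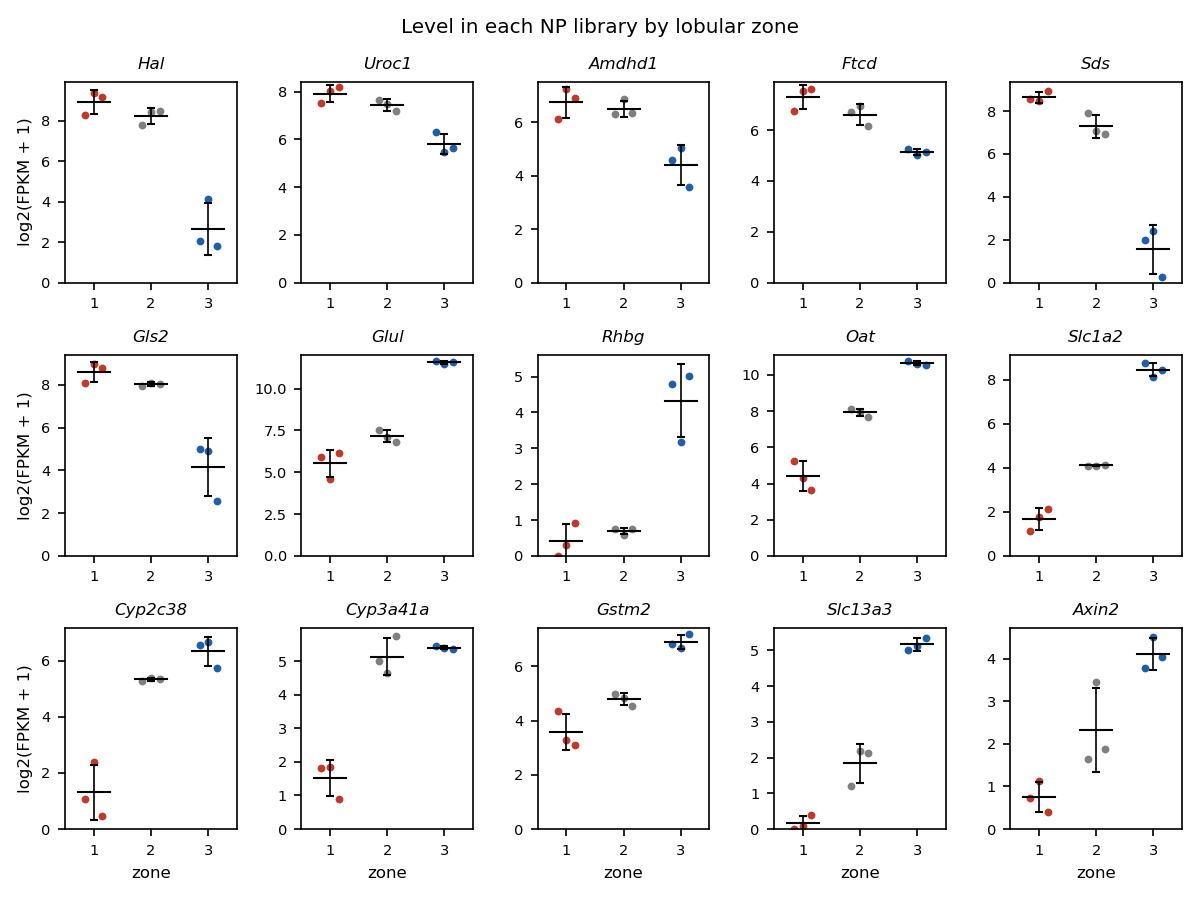
Level in log2(FPKM + 1) of 15 genes in each NP library of zones 1, 2 and 3 (points from left to right are replicates 1, 2 and 3, the horizontal line is the mean and the bars are ± SD, n = 3). Hal, Sds and Gls2 drop between zones 2 and 3, Rhbg rises only from zone 2 to zone 3, and Cyp2c38 and Cyp3a41a are already high in zone 2 (mean FPKM 39.1 and 35.9).

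Among the carbohydrate lists, only that of gluconeogenesis held calls. Of 16 genes of gluconeogenesis none was higher in zone 1, and 2 transporters on the list were higher in zone 3, against 0.588% and 0.913% of all genes. All 3 zone 1 values lay above in 3 of the 16 and all 3 zone 3 values in 3, against 6.06% and 6.62% of all genes. Without the Y-linked libraries 1 was called in zone 1 and 2 in zone 3. Slc16a10, which exports aromatic amino acids, had 9.35, 20.3 and 16.4 FPKM against 96.2, 67.2 and 96.3, a difference of -2.46 that held. Aqp9, through which glycerol enters hepatocytes, had 58.2, 69.6 and 103 FPKM against 266, 217 and 330 (-1.82, adjusted p up to 0.11 without zone 1 replicate 1, lost in 4 fits). None of 21 genes of glucose uptake and glycolysis, 14 of glycogen metabolism or 10 of the pentose phosphate pathway passed, with medians of 0.24, -0.01 and 0.10. In 8 of the 21 glycolysis genes all 3 values of zone 1 lay above those of zone 3, against 6.06% of all genes, and 2 of the 21 were called in zone 1 without the Y-linked libraries.

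No call was made among 23 genes of lipogenesis (median 0.03), 26 of fatty acid oxidation (median -0.42) or 25 of cholesterol synthesis and uptake (median -0.31). Fasn, fatty acid synthase, for example, had 161, 159 and 415 FPKM in zone 1 and 85.0, 85.9 and 286 in zone 3. Replicate 3 was the highest library of both zones in this gene. Of the fatty acid oxidation genes 24 of 26 had a negative difference, although none passed. In 9 of the 26 all 3 values of zone 3 lay above those of zone 1, against 6.62% of all genes.

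Further metabolic genes were called, most of them outside these lists. Cryl1, a dehydrogenase of the sugar acid gulonate, was higher in zone 1 at 14.9, 44.7 and 39.5 FPKM against 1.11, 0.353 and 1.06 (4.09). Bdh2, a short-chain dehydrogenase, had 10.3, 16.1 and 31.1 FPKM against 1.27, 0.831 and 0.563 (3.30). Eci3, a peroxisomal isomerase of unsaturated fatty acids, had 8.17, 17.4 and 16.1 FPKM against 0.123, 0.577 and 0.844 (difference 3.26). Hsd17b13, a lipid droplet enzyme, had 258, 292 and 374 FPKM against 13.2, 12.1 and 5.79 (difference 4.82). All 4 calls held. Slc16a6, the exporter of ketone bodies, was the 1 called gene of 6 in ketone body synthesis, at 3.57, 6.64 and 3.18 FPKM against 0.283, 0.203 and 0.114. Its difference of 2.14 reached an adjusted p of 0.091 without zone 1 replicate 2 and was also lost without zone 3 replicate 3.

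Apoc2, the activator of lipoprotein lipase, was the 1 called gene of 24 apolipoproteins and assembly factors, at 260, 560 and 446 FPKM against 165, 162 and 117. Its difference of 1.45 was lost in 5 fits, with an adjusted p up to 0.27 without zone 1 replicate 2. Without the Y-linked libraries 3 of the 24 genes were called in zone 1. On the zone 3 side, Fitm1, a protein of lipid droplet formation, had 0, 0.219 and 0 FPKM against 26.3, 5.88 and 13.2 (difference -3.70, held). Vldlr, a lipoprotein receptor, was at 1.56, 3.24 and 0.683 FPKM against 28.4, 7.13 and 7.5 (difference -2.26, adjusted p up to 0.23 without zone 3 replicate 1, lost in 3 fits).

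Of 25 genes of bile acid synthesis and transport 3 were higher in zone 3 and none in zone 1 (median -0.33). Cyp27a1, which starts the alternative pathway, had 69.7, 130 and 158 FPKM against 457, 278 and 412 (difference -1.72). Cyp7b1, the oxysterol 7α-hydroxylase of the same pathway, had 1.04, 3.03 and 4.16 FPKM against 9.73, 20.9 and 23.1 (-2.35). Akr1c6, a hydroxysteroid dehydrogenase, had 110, 260 and 384 FPKM against 948, 967 and 1862 (-2.42). The highest adjusted p with 1 library left out was 0.086, 0.14 and 0.23 in these 3 genes, each time without zone 1 replicate 1, and 2, 3 and 5 of the fits lost the call. Cyp7b1 and Akr1c6 were not called without the Y-linked libraries (adjusted p = 0.096 and 0.15, limma). That fit called 1 of the 25 genes in zone 1 and 1 in zone 3. Cyp7a1, the rate-limiting enzyme of the classical pathway, was at 7.16, 14.6 and 103 FPKM against 56.5, 105 and 386 and did not pass (-2.49 ± 0.76, SE, adjusted p = 0.15, limma). Its values overlapped between the zones, and replicate 3 was the highest in both. Between libraries of the same number zone 3 was always the higher, and a fit with a replicate block called Cyp7a1 (given at the end).

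Genes of detoxification were called mostly in zone 3. Of 54 tested genes of cytochrome P450 families 1 to 4 (80 in the table), 13 were higher in zone 3 and 2, Cyp2f2 and Cyp2a4, in zone 1, with a median of -0.78. Calls sat in some subfamilies and not in others, where no call in so few genes is near the share over all genes. Cyp2c had 5 called genes of 13 (median -1.72), Cyp3a 3 of 8 (median -1.44), Cyp2d 1 of 5 (median -0.35) and the Cyp4 family, whose members hydroxylate fatty acids, 0 of 11 (median -0.34). The genes within a subfamily are close copies, and the authors used uniquely mapped reads, so part of the reads of such genes may be missing or may sit on a neighbour.

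Cyp2e1, the ethanol-oxidising enzyme, was the most abundant of these genes in zone 3, at 216, 247 and 268 FPKM against 11838, 7106 and 10625. Cyp2c38 (chromosome 19, 39389556 to 39463075) showed the largest difference of its subfamily, at 1.10, 4.19 and 0.389 FPKM against 93.8, 101 and 52.7 (-5.02 ± 0.55, SE, adjusted p = 2.5e-06, limma). Cyp2c37 followed with 120, 132 and 154 FPKM against 822, 899 and 1144, then Cyp2c69 with 95.0, 173 and 105 against 634, 753 and 901, and Cyp2c67 with 26.1, 62.3 and 42.1 against 144, 211 and 216. Zone 3 lay above zone 1 in each library of these genes. Their calls held except that of Cyp2c37 (-2.81), which reached an adjusted p of 0.066 without zone 3 replicate 3 and was also lost without zone 1 replicate 1. Cyp2d9, the called gene of its subfamily, had 11.7, 14.4 and 17.2 FPKM against 47.8, 93.4 and 41.7 (-1.93, lost in 5 fits, adjusted p up to 0.2 without zone 3 replicate 2).

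The Cyp3a genes called were Cyp3a16, Cyp3a41a and Cyp3a41b. Cyp3a16 (chromosome 5, 145436309 to 145469723) had 4.26, 3.05 and 2.1 FPKM against 359, 37.5 and 296, a difference of -5.31 ± 0.66 (SE) that held. Cyp3a41a had 2.56, 2.57 and 0.863 FPKM against 42.8, 40.9 and 39.9, a difference of -3.88 that held. Cyp3a41b (-3.12) was lost without zone 3 replicate 1, with an adjusted p of 0.095. Zone 3 replicate 2, a library with Y-linked transcripts, was the lowest of its zone for Cyp3a16 and Cyp3a41b.

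Cyp2a4 and Cyp2a5, neighbours on chromosome 7 (26307169 to 26315088 and 26835305 to 26843548) and nearly identical in sequence, ran in opposite directions. Cyp2a5, coumarin 7-hydroxylase, had 66.7, 15.6 and 135 FPKM in zone 1 and 3350, 596 and 4482 in zone 3 (-5.28 ± 0.84, SE). Cyp2a4, a testosterone 15α-hydroxylase, had 597, 396 and 1103 FPKM in zone 1 and 156, 51.5 and 100 in zone 3 (2.77 ± 0.50, SE). Both calls held. Replicate 2 was the lowest library in both genes and both zones. Cyp2a22 (-3.34) was lost in 4 fits, with an adjusted p up to 0.26 without zone 3 replicate 1.

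Among conjugating enzymes the calls again fell in single genes. Of 12 cytosolic sulfotransferases Sult3a1 and Sult3a2 were higher in zone 3 and Sult5a1 in zone 1. Sult3a1, which sulfonates amines (chromosome 10, 33857721 to 33879532), had 0.432, 2.46 and 4.07 FPKM against 174, 242 and 516, a difference of -6.58 ± 0.69 (SE) and the largest in zone 3 outside the usual markers. Its near copy Sult3a2 was listed at 0 in the zone 1 libraries and had 15.2, 7.70 and 14.5 FPKM in zone 3 (adjusted p = 0.00035, limma). Sult3a2 passed the expression filter through zone 3 only. Sult5a1 had 17, 62.4 and 63.8 FPKM against 0.919, 5.05 and 3.20 (3.52, adjusted p up to 0.10 without zone 3 replicate 1, lost in 3 fits). Both Sult3a calls held.

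Of 21 glutathione S-transferases 3 of the Mu class, Gstm2, Gstm3 and Gstm6, were higher in zone 3 (list median -0.50). Gstm2 had 19.4, 8.79 and 7.66 FPKM against 112, 102 and 146 (-3.32 ± 0.34, SE), and Gstm6 had 20.3, 26.7 and 30.2 against 103, 109 and 129 (-2.11). Both held. Gstm3, at 5.40, 3.44 and 6.59 FPKM against 105, 53.4 and 98.5, was lost in each of the 6 fits (-3.79, adjusted p up to 0.15 without zone 1 replicate 2). Of 19 UDP-glucuronosyltransferases 4 had a positive difference (median -0.58), and in 6 all 3 values of zone 3 lay above those of zone 1, against 6.62% of all genes. The 1 gene that passed, Ugt1a9, was higher in zone 1: 79.9, 139 and 149 FPKM against 41.3, 18.6 and 21.5 (2.17, held). Ugt1a9 shares its 3′ exons with the other Ugt1a genes. None of 12 carboxylesterases passed (median -0.61), nor any of 5 flavin monooxygenases (median -0.35).

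Enzymes of alcohols, aldehydes, steroids and retinoids were divided by gene as well. Of 16 aldehyde dehydrogenases Aldh1b1, a mitochondrial form, was higher in zone 1 at 115, 180 and 199 FPKM against 0.0829, 0.170 and 0.594 (7.00). Aldh3a2, the fatty aldehyde dehydrogenase, was higher in zone 3 at 75.3, 47.4 and 50.6 FPKM against 434, 242 and 376 (-2.57). Both held. Aldh1a1, a retinaldehyde dehydrogenase, was called in zone 3 (-1.91) and lost in 5 fits, with an adjusted p up to 0.21 without zone 1 replicate 1. Hsd17b6, which oxidises steroids and retinoids, had 238, 417 and 336 FPKM against 0.146, 5.68 and 1.71 (6.88, held).

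Rdh9, a retinol dehydrogenase (chromosome 10, 127776386 to 127792697), had 0.295, 2.69 and 2.54 FPKM against 164, 57.2 and 208, a difference of -5.62 ± 0.55 (SE) that held. Adh4, which oxidises retinol and long-chain alcohols, was the 1 called gene of 4 alcohol dehydrogenases, at 10.8, 51.7 and 35.5 FPKM against 108, 191 and 145 (-2.36, held). Of 14 aldo-keto reductases Akr1c6, Akr1c20 and Akr1a1 were higher in zone 3. Akr1c20 (-1.71) reached an adjusted p of 0.13 without zone 3 replicate 3 and Akr1a1 (-0.83) of 0.29 without zone 1 replicate 1, with 2 and 5 fits losing the call. Akr1a1 and Akr1c6 were not called without the Y-linked libraries (adjusted p = 0.077 and 0.15, limma).

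Gulo, the last enzyme of vitamin C synthesis in rodents (chromosome 14, 65986786 to 66009207), had 9.97, 14.4 and 26.9 FPKM in zone 1 and 555, 409 and 668 in zone 3. Its difference of -4.99 ± 0.33 (SE, adjusted p = 2.2e-09, limma) held. Akr1a1 acts upstream of it, reducing glucuronate. Rgn, an earlier enzyme of the same synthesis and a usual pericentral marker, had 177, 315 and 375 FPKM against 946, 1072 and 1978 (-2.19, held). Pon1, a lactonase carried on high-density lipoprotein, had 176, 284 and 324 FPKM against 805, 858 and 1208 (-1.89, adjusted p up to 0.072 without zone 1 replicate 1, also lost without zone 3 replicate 3).

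Blvrb, which reduces biliverdin and flavins, was the 1 called gene of 15 in heme synthesis and breakdown, at 28.4, 36.9 and 48.5 FPKM against 170, 142 and 179 (-2.11 ± 0.27, SE, held). Without the Y-linked libraries 3 of the 15 were called in zone 3. Alas1, which limits heme synthesis, had 391, 107 and 999 FPKM against 1161, 138 and 1730 (-0.91 ± 1.03, SE, adjusted p = 0.96, limma). Replicate 2 was the lowest and replicate 3 the highest in both zones. None of 24 antioxidant genes and NRF2 targets passed, and Nqo1 had 17.5, 9.64 and 11.5 FPKM against 7.65, 18.9 and 13.7. Without the Y-linked libraries 2 of the 24 were called in zone 3.

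**Figure D3:**
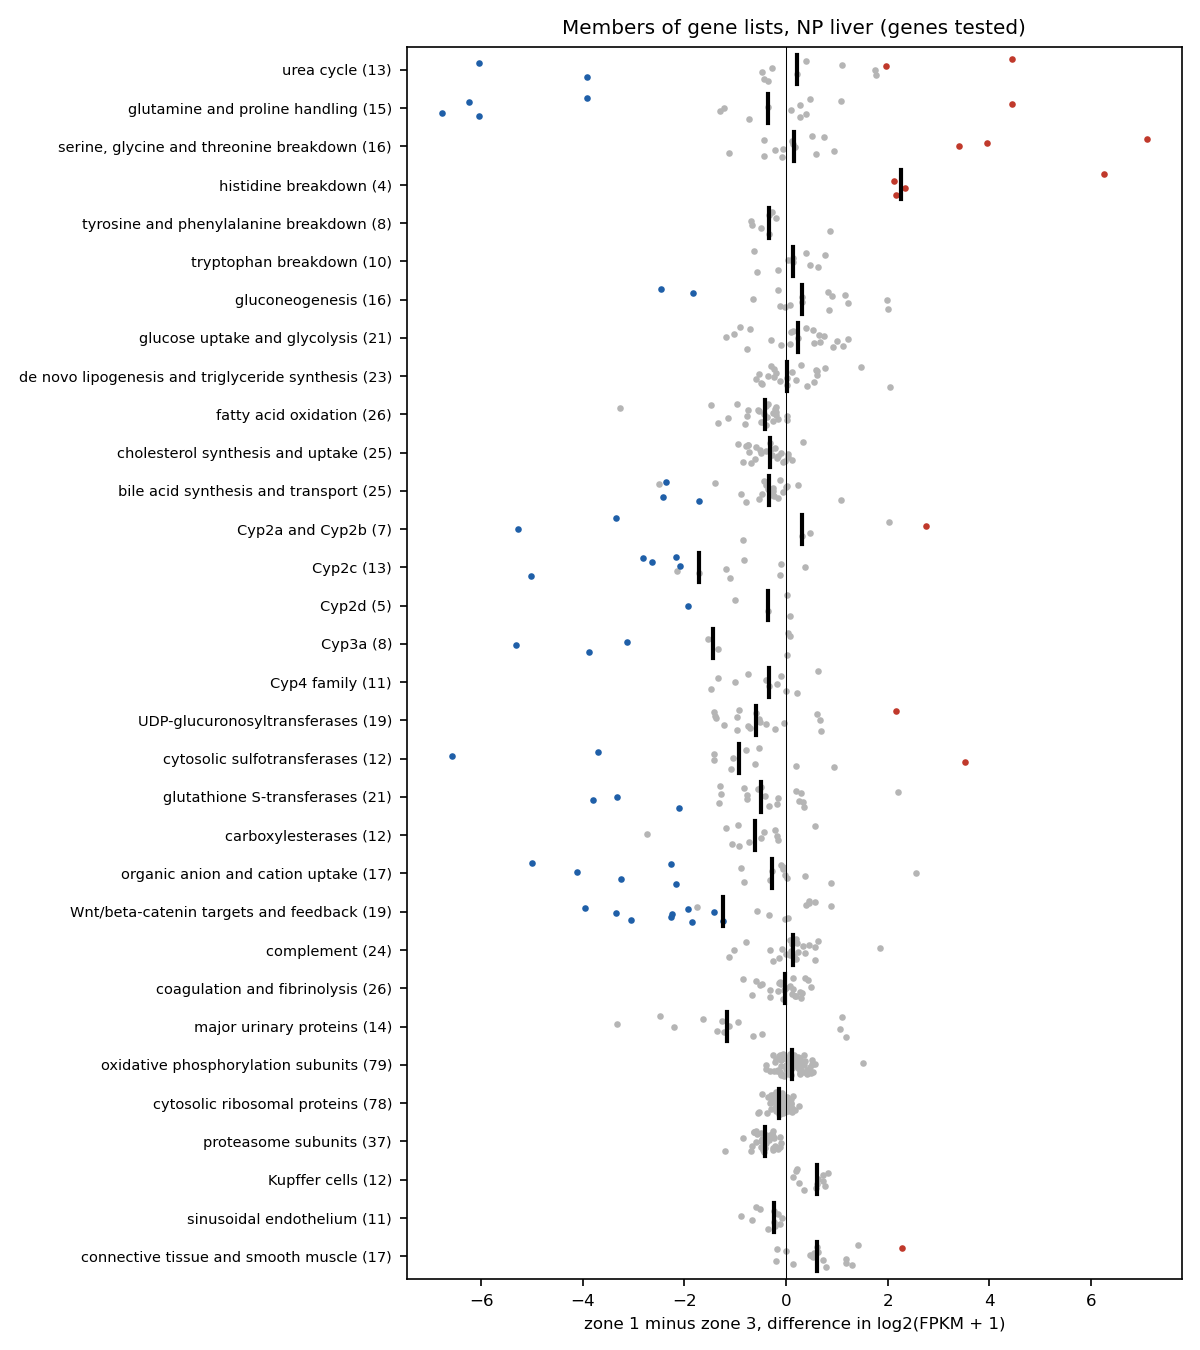
Difference between zones (zone 1 minus zone 3, in log2(FPKM + 1)) of each tested member of 32 gene lists, with the number tested in brackets; red is higher in zone 1, blue higher in zone 3, grey not past the test, and the black bar is the list's median. The 4 histidine genes lie at 2.12 or above, the Cyp2c and Cyp3a medians lie at -1.72 and -1.44, and the 37 proteasome subunits lie at -0.10 or below without a call.

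Membrane transporters of zone 3 were mostly those for organic ions. Of 17 uptake carriers for organic anions and cations 5 were higher in zone 3 and none in zone 1, and without the Y-linked libraries 4 and 2. Slc13a3, a sodium-coupled carrier of dicarboxylates (chromosome 2, 165405028 to 165473230), had 0, 0.0676 and 0.306 FPKM against 31.4, 33.9 and 40.0. Its difference was -5.01 ± 0.36 (SE, adjusted p = 4.1e-09, limma), and it passed the expression filter through zone 3 only. Slc22a3, which takes up organic cations, had 0.633, 0.286 and 0.553 FPKM against 7.16, 4.91 and 6.60. Slco1b2, a bile acid and drug carrier, had 120, 226 and 207 FPKM against 709, 592 and 1222. These 3 calls held, with differences of -5.01, -2.27 and -2.16. Slco1a1 had 0.0916, 5.80 and 2.70 FPKM against 12.6, 83.1 and 124 (-4.11), was lost without zone 3 replicate 3 (adjusted p = 0.050) and was not called without the Y-linked libraries (adjusted p = 0.15, limma).

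Over all 222 tested solute carriers, 3 were higher in zone 1 and 11 in zone 3 (median 0.02). Slc3a1, which forms the transporter of cystine and basic amino acids, was the strongest in zone 1, at 47.1, 101 and 60.4 FPKM against 2.39, 3.44 and 1.78 (4.27, held). Slc10a1, the main bile acid uptake carrier, overlapped between the zones, at 222, 361 and 529 FPKM against 337, 263 and 546 (-0.06 ± 0.40, SE, adjusted p = 0.99, limma). Of 38 ABC transporters 1 was called in zone 3, Abcc9, at 5.84, 5.73 and 6.06 FPKM against 12.8, 13.2 and 14.8. Its groups did not overlap, but the call (-1.08) was lost in each of the 6 fits, with an adjusted p up to 0.17 without zone 3 replicate 3. Cldn2, which forms cation and water pores in tight junctions, was higher in zone 3 at 3.73, 6.58 and 3.97 FPKM against 40.0, 54.3 and 38.1 (-2.99, held).

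Targets and feedback regulators of Wnt signalling were higher in zone 3 in 9 of 19 tested genes and in zone 1 in none, with a median of -1.23. Axin2, a scaffold of the β-catenin destruction complex, had 0.670, 1.18 and 0.330 FPKM against 12.7, 21.9 and 15.3. Sp5, a transcription factor, was listed at 0 in the zone 1 libraries and had 5.26, 3.86 and 2.62 FPKM in zone 3 (adjusted p = 2.0e-06, limma). It passed the expression filter through zone 3 only. Lect2, a secreted protein, had 13.7, 21.8 and 36.0 FPKM against 276, 311 and 543 (-3.96 ± 0.37, SE). Tbx3, a transcription factor, had 7.86, 6.43 and 1.35 FPKM against 32.7, 45.9 and 54.0, and Nkd1, an inhibitor of the pathway, had 2.18, 1.11 and 1.33 against 9.38, 9.63 and 14.2. The calls of Axin2, Sp5, Lect2, Tbx3 and Nkd1 held.

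The other 4 called genes of the list had smaller differences, of -1.23 to -1.92. Znrf3 (-1.23) and Rnf43 (-1.85), which remove Wnt receptors, reached an adjusted p of 0.050 without zone 3 replicate 1 and of 0.094 without zone 1 replicate 1, Rnf43 being lost also without zone 3 replicate 3. Notum (-1.92), which inactivates Wnt proteins, was lost in 5 fits and Tcf7 (-1.41), a transcription factor of the pathway, in 6, with an adjusted p up to 0.24 for both without zone 1 replicate 1. Rnf43 and Tcf7 were not called without the Y-linked libraries (adjusted p = 0.076 and 0.17, limma). Opposite to these genes, Ctnnbip1, which blocks binding of β-catenin to TCF proteins, was higher in zone 1 at 10.6, 9.48 and 13.4 FPKM against 0.0703, 2.70 and 0.573 (2.71, held). Tle4, a corepressor of TCF proteins, was also higher in zone 1, at 5.58, 5.77 and 9.49 FPKM against 1.42, 2.24 and 1.57 (1.51, held).

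The 250 bases before the start of transcription (RefSeq, GRCm38.p6) were searched on both strands for CTTTGA, the core letters that TCF/LEF proteins recognise, because these proteins bring β-catenin to its targets. Of the 11 genes higher in zone 3 among the Wnt list and the 4 markers, 8 had such a window, and the letters occurred in 3, Sp5, Lect2 and Slc1a2. The windows of Sp5 and Lect2 are printed 5′ to 3′ with the matches in capitals (TCAAAG is the match on the other strand).
Sp5, chr2:70474673-70474922, plus strand: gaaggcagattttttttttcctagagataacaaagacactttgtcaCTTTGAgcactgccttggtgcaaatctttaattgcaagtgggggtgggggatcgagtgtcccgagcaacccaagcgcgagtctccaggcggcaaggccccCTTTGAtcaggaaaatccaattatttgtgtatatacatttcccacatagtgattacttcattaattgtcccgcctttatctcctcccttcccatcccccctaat
Lect2, chr13:56548539-56548788, minus strand: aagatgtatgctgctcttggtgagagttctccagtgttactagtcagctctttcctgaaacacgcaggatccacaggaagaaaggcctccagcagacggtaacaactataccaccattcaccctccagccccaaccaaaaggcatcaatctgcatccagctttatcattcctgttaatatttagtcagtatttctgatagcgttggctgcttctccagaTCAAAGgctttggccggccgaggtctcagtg
The matches begin 204 and 104 bases before the start in Sp5 and 31 bases before it in Lect2. Such short runs of letters are common: the core occurred in 13.1% of the 9012 tested genes with a window, in 16.9% of the 89 genes with a window among those higher in zone 3 and in 19.6% of the 46 among those higher in zone 1. The TATA box letters TATAAA were present in 8.29% of all genes with a window, in 23.6% of those higher in zone 3 and in 23.9% of those higher in zone 1. The letters AGTCCA, part of HNF4A sites, was present in 12.6%, 20.2% and 10.9%, GTTAAT, part of HNF1 sites, in 5.40%, 14.6% and 13%, and the E-box (CACGTG) in 9.98%, 5.62% and 6.52%, in the same order. These shares describe the windows and were not tested.

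Genes of the Wnt signal itself, which come from the central vein endothelium, were also called in zone 3. Wnt2 had 0.107, 1.07 and 0.345 FPKM against 2.79, 6.67 and 4.79 (-1.92), and Rspo3, which strengthens Wnt signalling, had 0.758, 1.56 and 0.728 against 4.04, 5.40 and 6.42 (-1.65). Both calls held, although Wnt2 was not called without the Y-linked libraries (adjusted p = 0.053, limma). With Cdh13 (-1.93, lost in 4 fits, adjusted p up to 0.24 without zone 1 replicate 2), 3 of 8 tested markers of central vein endothelium were higher in zone 3. Wnt9b, another Wnt protein of this endothelium, fell under the expression filter. The 9 markers of this list together summed to 17 to 38.1 FPKM in zone 1 and to 49.6 to 60.4 in zone 3.

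Of 38 nuclear receptors and hepatocyte transcription factors 3 were called, each in zone 3. Ahr, the receptor of dioxin that induces Cyp1a2, had 3.14, 10.1 and 7.29 FPKM against 33.8, 32.9 and 41.0 (-2.34 ± 0.30, SE, held), Tbx3 is given above, and Pparg (-1.59) was lost in 4 fits, with an adjusted p up to 0.13 without zone 1 replicate 2. Cyp1a2 itself had 36.9, 46.1 and 110 FPKM against 791, 629 and 932. Hnf4a, the central hepatocyte factor, had 155, 155 and 184 FPKM against 220, 122 and 167 (-0.01 ± 0.48, SE, adjusted p = 1.0, limma). Of 19 hypoxia response genes 1 was higher in zone 3, Egln3, an oxygen sensor, at 3.57, 4.61 and 1.94 FPKM against 9.99, 13.8 and 11.4 (-1.58, lost without zone 1 replicate 3, adjusted p = 0.060), and Vegfa overlapped between the zones. No call was made in 19 genes of glucagon, insulin and FGF signalling or in 14 clock genes.

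Some receptors and a ligand outside the lists were called too. Npr2, the receptor of C-type natriuretic peptide, had 19.0, 4.71 and 2.65 FPKM against 45.1, 49.2 and 51.9 (-2.73), and Adgrf1, an adhesion receptor, had 0, 1.62 and 0.944 against 7.07, 6.88 and 7.90 (-2.27). Ihh, a hedgehog ligand, had 0, 0.124 and 0.458 FPKM against 3.32, 1.46 and 5.51 (-1.80). The calls of Npr2, Adgrf1 and Ihh held. Avpr1a, the vasopressin receptor of hepatocytes, had 2.43, 8.22 and 2.14 FPKM against 12.2, 39.1 and 15.3 (-2.15). It was lost in 3 fits, with an adjusted p up to 0.16 without zone 3 replicate 2, and was not called without the Y-linked libraries (adjusted p = 0.30, limma). Plxna2, a semaphorin receptor, was higher in zone 1 at 9.67, 25.4 and 8.26 FPKM against 1.49, 3.01 and 1.21 (2.30, held). The genes of this paragraph, and Rida, Fitm1, Vldlr, Rgn, Pon1, Cyp1a2, Slco1b2, Cldn2, Nkd1, Znrf3, Rnf43, Notum, Tcf7, Ctnnbip1, Tle4, Lgr5, Rcan2, Ang and Rnase4, fall outside the rule for named genes and were chosen after their values were seen.

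Lhpp, a phosphatase and a usual pericentral marker, had 1.26, 0.890 and 1.40 FPKM against 190.5, 126 and 134.0 (-6.10, held). Less studied genes followed. Nxpe2 (chromosome 9, 48318006 to 48353454) had 1.37, 0.318 and 0.991 FPKM against 24.4, 26.0 and 35.4, a difference of -3.99 ± 0.32 (SE, adjusted p = 2.7e-08, limma). Pcp4l1 had 2.50, 0.817 and 0.343 FPKM against 45.8, 20.0 and 26.7 (-3.88), and Rcan2, a regulator of calcineurin, had 1.54, 0 and 0.300 against 19.1, 8.80 and 17.1 (-3.36). These calls held, and zone 3 lay above zone 1 in every library. Tstd1, a sulfurtransferase, was higher in zone 1 at 23.0, 23.5 and 44.5 FPKM against 0, 0 and 1.42 (4.48, held). Sulf2, which trims heparan sulfate, was at 44.0, 19.9 and 14.7 FPKM against 0.795, 8.59 and 0.597 (3.02, lost in 4 fits, adjusted p up to 0.16 without zone 3 replicate 3).

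Among secreted plasma proteins, none of 24 complement genes (median 0.14), 26 coagulation genes (median -0.01) or 21 acute phase genes (median 0.47) passed, and Alb, albumin, had 30723, 62556 and 84387 FPKM against 22396, 28226 and 28810 (1.05 ± 0.49, SE, adjusted p = 0.58, limma). Without the Y-linked libraries Alb was called (1.52, adjusted p = 0.00053, limma), and 3 complement genes were higher in zone 1. That fit also called 5 of 12 genes of albumin and plasma carriers in zone 1 (1 with all libraries), 3 of 29 serpins (0 with all libraries) and 2 of 21 acute phase genes (0 with all libraries). Serpina7, which carries thyroid hormone, was higher in zone 3 at 0.690, 0.515 and 0.223 FPKM against 19.8, 11.1 and 14.1 (-3.41, held). A1bg, a plasma glycoprotein, was higher in zone 1 at 141, 590 and 116 FPKM against 38.7, 30.4 and 16.1 (2.95, adjusted p up to 0.058 without zone 1 replicate 2, also lost without zone 3 replicate 3).

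Ang and Rnase4, secreted ribonucleases, were both higher in zone 3, at 85.8, 138 and 173 FPKM against 656, 680 and 865 and at 174, 236 and 366 against 1110, 1082 and 1654. The 2 genes overlap on the same strand of chromosome 14 (51091150 to 51102009 and 51091077 to 51106151), so their reads are not fully separable. Ang was lost in 5 fits and Rnase4 in 2, with an adjusted p up to 0.15 and 0.078 without zone 1 replicate 1, and Ang was not called without the Y-linked libraries (adjusted p = 0.060, limma). None of 14 tested major urinary proteins, which are near-identical copies, passed (median -1.17, range -3.33 to 1.18).

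No subunit of the large housekeeping complexes was called. None of 79 subunits of oxidative phosphorylation (median 0.12, range -0.40 to 1.52), 78 cytosolic ribosomal proteins (median -0.13, range -0.56 to 0.27) or 18 citric acid cycle genes (median 0.19) passed. None of 37 proteasome subunits passed either, but all 37 differences were negative, between -1.21 and -0.10 with a median of -0.41. In 22 of the 37 all 3 values of zone 3 lay above those of zone 1, against 6.62% of all genes. Psma1, for example, named after its values were seen, had 28.2, 49.5 and 51.1 FPKM against 56.3, 89.7 and 85.4 (-0.85 ± 0.29, SE, adjusted p = 0.25, limma). The median without the Y-linked libraries was -0.35.

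Marker lists of other cell types held few calls. The 12 Kupffer cell genes had positive differences without exception (0.13 to 0.83, median 0.60), and none passed. In 6 of them all 3 values of zone 1 lay above those of zone 3, against 6.06% of all genes. Clec4f, the defining marker, had 40.6, 57.2 and 50.3 FPKM against 30.1, 20.8 and 39.6, and the 12 genes summed to 293 to 439 FPKM in zone 1 and to 239 to 277 in zone 3. Markers of sinusoidal endothelium (11 genes, median -0.23), stellate cells (11, median 0.00) and portal endothelium (9, median 1.01) held no call. Their summed levels were 123 to 238, 209 to 312 and 54.0 to 111 FPKM in zone 1 and 217 to 295, 296 to 434 and 27.2 to 53.9 in zone 3. The lists of T, B and NK cells, neutrophils and monocytes, mesothelium, and pancreas and gut epithelium had 1 to 3 tested genes each and no call, and their summed levels in the 6 libraries were at most 8.78, 57.0, 16.3 and 45.7 FPKM. Red blood cell genes summed to 54.7 to 524 FPKM in zone 1 and to 215 to 425 in zone 3, with none of 5 past the test.

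Some genes higher in zone 1 are known from cells of the portal tract. Sox9, a factor of bile duct cells and of the hepatocytes beside them, had 5.69, 6.37 and 5.78 FPKM against 0.155, 1.01 and 0.0884 (2.35 ± 0.39, SE, held), the 1 call among 9 tested bile duct genes. The 11 listed bile duct genes summed to 262 to 341 FPKM in zone 1 and to 190 to 194 in zone 3, where 7 of them were listed at 0 in replicate 3. Spp1, named after its values were seen, had 134, 59.5 and 123 FPKM against 0.601, 20.7 and 0 and did not pass (adjusted p = 0.16, limma), but passed without the Y-linked libraries (adjusted p = 0.0040). Krt19, a keratin of bile ducts, had 12.6, 4.09 and 3.06 FPKM against 15, 3.15 and 0. Mfap4, an elastic fibre protein, was the 1 call among 17 connective tissue genes, at 14.3, 5.70 and 2.08 FPKM against 0, 1.24 and 0.202. Its value in zone 1 replicate 1, the library with 4281 FPKM of connective tissue genes, was the highest, and without that library its adjusted p was 0.29 (difference 1.71). The part of portal tract cells in the zone 1 calls was not tested.

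The zone 2 libraries entered the shared estimate of the spread but not the difference between zones 1 and 3. They show where along the lobule the level turned. Placed on the log2(FPKM + 1) scale between the zone 3 mean (0) and the zone 1 mean (1), zone 2 lay between the other zones for 58 of the 67 genes higher in zone 1 and 102 of the 104 higher in zone 3. The median position was 0.69 for the first set and 0.50 for the second. These positions are descriptions of means of 3 libraries, with no test. Many periportal genes kept most of their level in zone 2, such as Hal at 0.89, Aspg at 0.89 and Gls2 at 0.87.

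At the other end, 7 genes higher in zone 1 had a zone 2 mean at or below that of zone 3. They were Scara3, Mfap4, 5330417C22Rik, Kcne3, Muc1, Slc51b and Msmp, all low: Scara3 had 7.58, 2.78 and 6.64 FPKM in zone 1 and a mean of 0.157 in zone 2, and Muc1, an epithelial mucin, had 1.29, 2.25 and 2.52 in zone 1 and was listed at 0 in the libraries of zones 2 and 3. Lamc3, a laminin chain, had 5.47, 1.87 and 3.23 FPKM in zone 1, a mean of 0.0367 in zone 2 and was listed at 0 in zone 3. The calls of Scara3 and Lamc3 held. That of Muc1 was lost in 5 fits (adjusted p up to 0.15 without zone 1 replicate 3), that of Slc51b in 4 (0.16, the same library), that of Kcne3 in 1 (0.054, the same library) and that of Msmp in 6 (0.19 without zone 3 replicate 1). Without the Y-linked libraries 5330417C22Rik, Kcne3, Muc1, Slc51b and Msmp were not called, with adjusted p of 0.082, 0.094, 0.054, 0.059 and 0.13 in limma. Scara3, 5330417C22Rik, Kcne3, Muc1, Msmp, Lamc3 and Tuba8 were named after their values were seen.

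The zone 2 positions of genes higher in zone 3 ran from near zone 1 to near zone 3 without a clear division. Rhbg (0.93), Sp5 (0.94), Ihh (0.95), Slc22a3 (0.99) and Tuba8, a tubulin, were near the zone 1 level in zone 2 already. Glul (0.73) and Slc1a2 (0.64) were intermediate, with means of 145 and 16.2 FPKM in zone 2. Cyp3a41a (0.07) and Avpr1a (0.02) were close to the zone 3 level in zone 2. Cyp2e1 (0.29), Cyp2c38 (0.20) and Cyp3a16 (0.17) lay nearer to zone 3 than to zone 1 on this scale. Their zone 2 means were 3454, 39.1 and 106 FPKM, against 9856, 82.5 and 231 in zone 3. Cyp2e1 and Glul, with differences of -5.30 and -6.04 between zones 1 and 3, thus had different zone 2 positions.

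**Figure D4:**
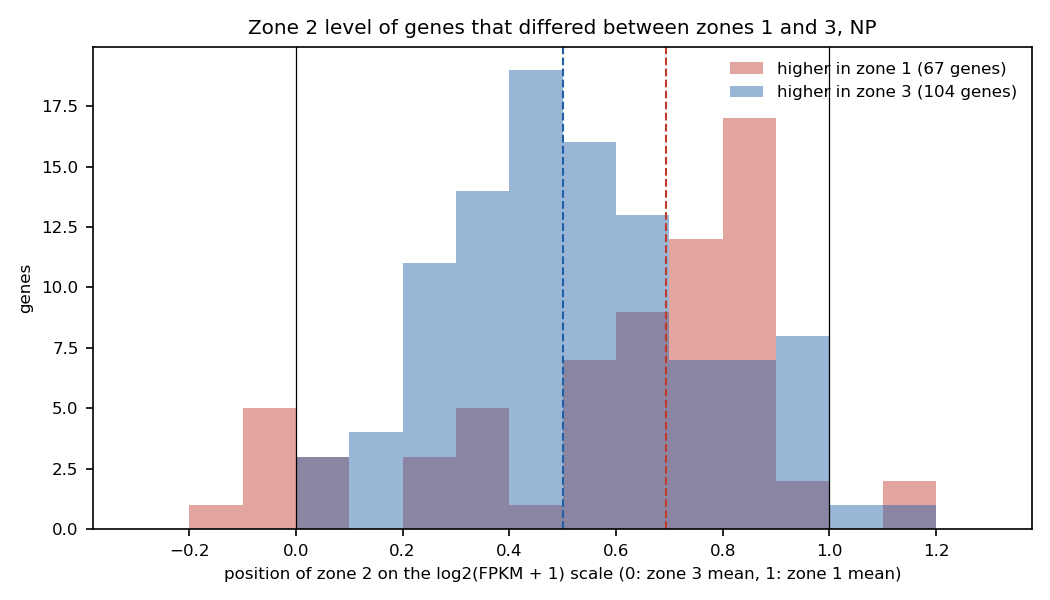
Number of genes by the position of their zone 2 mean in NP liver, on the log2(FPKM + 1) scale set to 0 at the zone 3 mean and 1 at the zone 1 mean; red is the 67 genes higher in zone 1, blue the 104 higher in zone 3, and dashed lines are the medians. The red median of 0.69 lies nearer to zone 1 than the blue median of 0.50.

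The zones of pregnant mice, from separate libraries, gave the same direction for most of these genes. At dpc8, where 0.615% of all genes tested were called higher in zone 1 and 1.05% higher in zone 3, the sign was the same for 67 of the 67 genes of zone 1 and 103 of the 104 of zone 3, and 45 and 86 were called. At dpc16, with 0.747% and 0.817% of all genes called, the sign was the same for 64 and 103, and 43 and 64 were called. At both stages 36 and 61 were called, and at neither 15 and 15. Being past the threshold in NP mice and not at another stage does not show a difference between stages, which was tested directly.

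The zone difference in NP mice minus that at dpc8 passed for 0 of 11386 genes (0% called, limma), with 240 genes at an unadjusted p under 0.05. Minus that at dpc16 it passed for 2 genes (0.0176%), with 347 at an unadjusted p under 0.05. The first was Cyp2c69, whose zone difference was -2.64 in NP, -3.24 at dpc8 and -5.65 at dpc16, a larger size at dpc16. The second was Gtpbp1, a GTP-binding protein, at 25.6, 18.9 and 16 FPKM in zone 1 and 9.89, 7.48 and 6.65 in zone 3 of NP mice, with a zone difference of 1.23 in NP, 0.25 at dpc8 and -0.95 at dpc16. Neither stage call was stable: with 1 of the 12 libraries of the contrast left out, Cyp2c69 was lost in 7 of 12 fits (adjusted p up to 0.11 without dpc16 zone 1 replicate 3, limma) and Gtpbp1 in 11 of 12 (up to 0.20 without NP zone 1 replicate 1). The NP call of Gtpbp1 was lost in 3 of the 6 fits, with an adjusted p up to 0.10 without zone 1 replicate 1, and was not made without the Y-linked libraries (adjusted p = 0.13, limma).

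**Figure D5:**
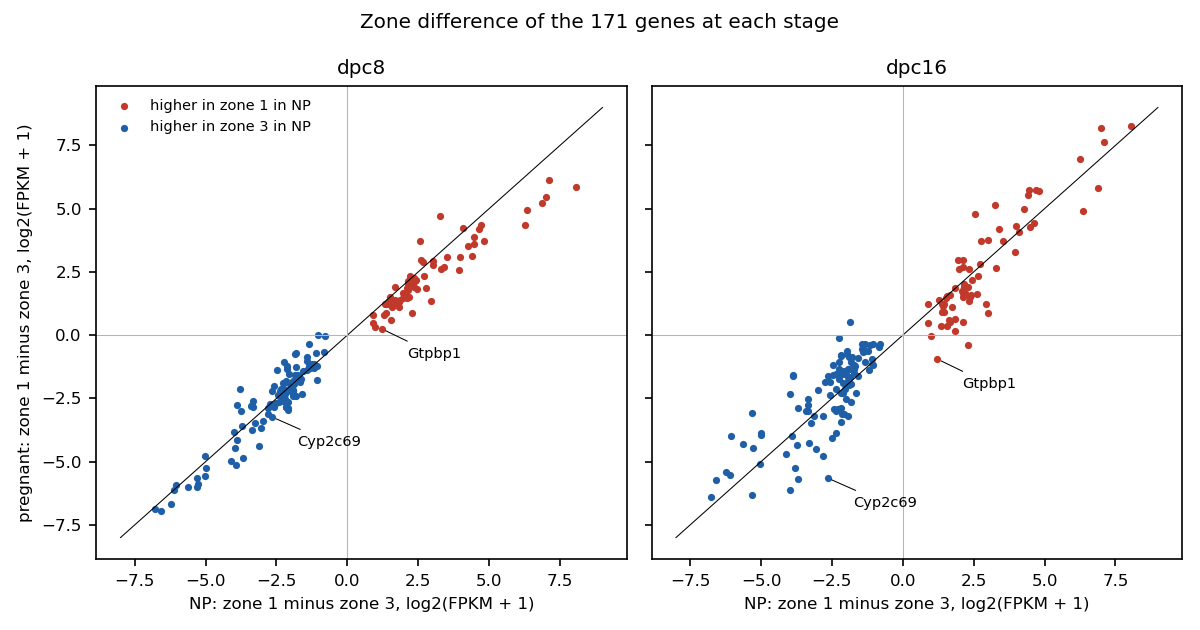
Zone difference (zone 1 minus zone 3, in log2(FPKM + 1)) of the 171 genes called in NP mice, at dpc8 (left) and dpc16 (right) on the vertical axis against NP on the horizontal axis; the line marks equal differences. Nearly all points lie in the quadrants of equal sign, and the labelled genes Gtpbp1 and Cyp2c69 are the 2 whose zone difference passed the test between NP and dpc16.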

How the data were processed

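RNA of laser-dissected zones was depleted of ribosomal RNA, sequenced as single-end reads and aligned to mm10 with HISAT2 2.1.0. The authors computed the deposited FPKM values per protein-coding gene with Cufflinks 2.2.1 from uniquely mapped reads (GENCODE annotation), so close copies can lose or share reads. These values are not counts, and no count test was run.

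FPKM values were taken as log2(FPKM + 1). Genes with FPKM of at least 1 in at least 3 of the 6 NP libraries of zones 1 and 3 were tested. All 27 libraries entered 1 limma 3.58.1 fit (R 4.3.3) with 9 group means and moderated variances (trend and robust), with Benjamini-Hochberg adjustment over the genes tested and a threshold of 0.05. The stage tests are contrasts of the same fit. Depth was estimated from the steps between low FPKM values, 93.75 to 97.69% of which lay near whole multiples of 1 read (within 0.15 of a read). A difference under the level of 1 read on a 1 kb transcript, 0.0472 to 0.0870 FPKM, cannot be resolved. On simulated data for the 11386 genes, 81 of 100 genes changed by 2 on the log2 scale, 19 of 100 changed by 1 and 3 of 11186 unchanged genes were called. The changed genes were drawn from those with a mean log2(FPKM + 1) above 2 and an SD under 1. The simulated noise was normal and independent between libraries. These shares therefore do not cover weak or variable genes, or libraries that stand apart.

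Named genes were the 4 markers, the 12 largest non-overlapping differences per direction outside the usual marker lists, up to 4 called genes per list and direction, the first member of lists and genes that passed a stage test. The comparison, its members and the gene lists were chosen with earlier results of these data known. Other names were chosen after their values were seen, as stated in the text. The replicate numbers come from the sample titles. The labels do not say what these numbers mark, so they were not taken as pairs. Deviations from the group means of same-numbered zone 1 and zone 3 libraries correlated at 0.0465, -0.0287 and 0.622. With 3 libraries per mean, these values cannot decide whether the numbers mark pairs. Coordinates are those of GENCODE vM21 (GRCm38), and promoter windows those of RefSeq (GRCm38.p6). Some genes are not reported here.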

Additional observations from a re-analysis of the deposited data

Results flagged for a closer look

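The zone difference of 2 genes differed between NP mice and mice at dpc16 by a direct test in limma, but neither call was stable when 1 of the 12 libraries was left out. For Gtpbp1 the zone difference in NP minus that at dpc16 was 2.17 on the log2(FPKM + 1) scale, and the call was lost in 11 of 12 such fits, all but the one without NP zone 1 replicate 3. For Cyp2c69 it was 3.01, and the call was lost in 7 of 12, those without NP zone 1 replicate 2, NP zone 3 replicate 1 or 2, dpc16 zone 1 replicate 2 or 3, or dpc16 zone 3 replicate 1 or 2.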

How the results depend on the processing

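The number of genes called, 171, became 78 when only the 6 libraries were fitted (29 higher in zone 1 and 49 in zone 3), 290 with the connective tissue genes as a covariate (137 in zone 1) and 282 with a replicate block (105 and 177). Array weights gave 110 genes in zone 1, and the fit without the Y-linked libraries 109. With 1 library left out, the total was 114 to 141, the zone 1 count 47 to 58 and the zone 3 count 64 to 90. The zone 3 count of 104 became 68 without zone 1 replicate 1, 64 without zone 3 replicate 1 and 69 without zone 3 replicate 3. The count of the dpc8 stage test went from 0 to 1 with the covariate. That of the dpc16 stage test, 2, became 8 without the filter on low values, 7 with the filter over all 27 libraries, 1 after scaling all libraries to one sum, 1 without the Y-linked libraries and 0 to 2 with 1 library left out (0 in 7 of 12 fits). The cause was not tested, except that fitting fewer libraries leaves fewer degrees of freedom. No called gene among those named changed direction. Of the named genes, 30 lost their call with only the 6 libraries, 15 with the 9 NP libraries and 4 with a pseudocount of 0.1. The replicate block changed the call of Cyp7a1 (adjusted p = 0.0017), Ass1 (0.025) and Psma1 (0.013) in limma. The same-numbered libraries share only a number as far as the labels say. Zone 1 replicate 1 correlated most with zone 3 replicate 2 (0.405), and both had Y-linked transcripts. The replicate 3 libraries of the 2 zones correlated at 0.622, so the correlations do not decide whether the numbers mark pairs.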
